A study of Homo sapiens with 16 samples.

Results

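The genes described here build ribosomes: 57 ribosome biogenesis and nucleolar genes, chosen by symbol from a list of factors grouped by role, out of 23354 genes in the RNA-seq count table. All 57 were present in the table and all 57 were among the 14215 genes with enough reads to be tested. By role, 3 belong to the box C/D small nucleolar ribonucleoprotein (snoRNP), 4 to the box H/ACA snoRNP, 8 are nucleolar organisers or RNA modifiers, 7 serve RNA polymerase I transcription, 17 act in assembly of the small ribosomal subunit and 18 in assembly of the large subunit.

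Ribosomes are made in the nucleolus, where RNA polymerase I transcribes the ribosomal RNA precursor, snoRNPs guide its methylation and pseudouridylation, and a long series of assembly factors folds, cuts and exports the 2 subunits. Plasma cells, and the myeloma cells derived from them, secrete large amounts of immunoglobulin and have prominent nucleoli. SUMOylation, the attachment of the small protein SUMO to other proteins, acts on many nucleolar proteins, and the SUMO protease SENP3 removes SUMO from ribosome assembly factors.

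MM1S and MM1R are human multiple myeloma cell lines from the same parent line; MM1S is sensitive to dexamethasone (Dex, a synthetic glucocorticoid) and MM1R is resistant to it. Each line received vehicle, 0.1 μM TAK-981 (an inhibitor of the SUMO-activating enzyme, SUMO E1), 1 μM Dex, or both drugs (combo), with RNA taken after 48 h of drug. Each of the 8 groups has 2 libraries, 16 in all, and the labels do not say whether the 2 came from separate cultures, so the p-values measure the spread between these libraries, which may be technical. Sensitivity to Dex is represented by 1 line on each side, so a difference between MM1S and MM1R cannot be told apart from any other difference between these lines.

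The libraries held 15707587 to 20644510 counts in MM1S and 18987739 to 24796539 in MM1R, and the lowest count of any of the 57 genes in any library was 81. The 10 plasma cell markers summed to 5040 to 8840 CPM (counts scaled to library size) in MM1S and 9670 to 11400 in MM1R with none at 0, whereas T cell markers summed to at most 6.42 CPM, myeloid markers to at most 0.591 and stromal markers to at most 3.74. The plasma cell sum moved with treatment: in MM1S it was 8840 and 8800 CPM in vehicle, 8550 and 7980 with TAK-981, 5850 and 5990 with Dex and 5060 and 5040 with combo. In MM1R it was 11300 and 11400 in vehicle, 9670 and 9670 with TAK-981, 10700 and 11100 with Dex and 9990 and 9750 with combo. The markers did not move together. With Dex in MM1S the group mean of JCHAIN went from 3560 to 1720 CPM and that of IRF4 from 1230 to 659. SDC1 went from 498 to 715 and PRDM1 from 728 to 729, and the other markers were lower. With TAK-981 the means of SDC1, XBP1, MZB1, CD38 and POU2AF1 were higher in both lines, and those of IRF4, PRDM1, TNFRSF17, SLAMF7 and JCHAIN lower. What part these changes have in the results below was not tested. Replicates also differed unequally, the chi-square of counts between the 2 libraries, divided by its degrees of freedom, being 22.6 for MM1S with TAK-981 and 20.4 for MM1S with Dex, 9.66 for MM1R with Dex and 2.15 to 5.44 for the other groups, while the fit uses 1 estimate of the spread per gene for all groups. Counts of calls in MM1S and MM1R are set side by side with that limit. In these bulk libraries fewer cells of a kind and less RNA per cell cannot be told apart. Fold changes below are log2 values from edgeR's quasi-likelihood test on the counts, with their standard error (SE), and a gene is called lower or higher where its p adjusted by Benjamini-Hochberg over the 14215 genes is under 0.05.

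Per kilobase of gene length, nucleolin (NCL, chr2:232319459-232329205 in hg19), a major nucleolar RNA-binding protein, stood at 216 RPKM (CPM divided by gene length in kilobases, mean of 2 libraries) in vehicle-treated MM1S and 230 in vehicle-treated MM1R. Nucleophosmin (NPM1), a nucleolar chaperone, followed at 155 and 196 RPKM, and NOP10, the smallest protein of the box H/ACA particle, at 122 and 160. The median over the 57 genes was 24.5 RPKM in MM1S and 30.5 in MM1R, against 7.33 and 7.24 over all genes tested. Levels differed by role, with role medians in MM1S of 80.9 for box C/D, 62.4 for organisers and modifiers, 57.5 for box H/ACA, 21.5 for small subunit assembly, 19.2 for large subunit assembly and 18.3 for RNA polymerase I. The lowest as counted were BOP1, at 3.02 and 3.70 RPKM, and PPAN, a large subunit factor, at 3.48 and 4.86. BOP1 works with PES1 and WDR12 in the PeBoW complex of large subunit assembly. PPAN overlaps PPAN-P2RY11 on the same strand, and BOP1 overlaps SCX on the opposite strand, each of these with a mean count of 0. What part the overlaps have in these low levels was not tested.

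One gene stood apart. WDR74, a large subunit factor, was listed at 634 RPKM in vehicle-treated MM1S and 446 in MM1R, above NCL, and took between 9.67% and 35.1% of all reads counted to the 57 genes in a library. GENCODE v29 (GRCh38) places the gene of a U2 small nuclear RNA, RNU2-2P (chr11:62841619-62841809), inside WDR74 (chr11:62832342-62841809) on the same strand, and the count table has no row of its own for RNU2-2P, so reads of the 2 cannot be told apart here. In MM1S its replicates differed widely, at 1160 and 1560 CPM in vehicle, 1520 and 2510 in TAK-981, 1120 and 1890 in Dex and 1750 and 1280 in combo. It was called in none of the comparisons below with the settings used here, but with no filter on low counts it was called higher with TAK-981 in MM1S, lower in MM1R than in MM1S, and in the interactions of line with TAK-981 and of TAK-981 with Dex in MM1S. With only the groups compared in the fit it was called higher in combo against vehicle in MM1R. What part the U2 RNA has in its values was not tested.

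The promoters were examined for CACGTG, the E-box bound by MYC with MAX, searched on both strands (the motif is its own reverse complement). RefSeq promoters (GRCh38.p14) were matched for 49 of the 57 genes, and NOP58, NOLC1, POLR1E, RRP12, BOP1, RRS1, RRP1B and DDX18 were not matched. In the 300 bases from 250 before to 50 after the start, 19 of the 49 (38.8%) held the motif, against 9.27% of 15422 promoters of genes tested and 7.26% of all 35116 promoters in the table. In the 250 bases before the start alone, 6 of the 49 (12.2%) held it, against 8.20% of promoters of genes tested. For the 49 genes only the first listed promoter was used. The shares set beside them count every listed promoter, more than 1 for some genes, so the shares are not alike in this. By role, the 300-base window held it in 8 of 16 small subunit genes, 7 of 14 large subunit genes, 2 of 7 organisers and modifiers, 1 of 2 box C/D genes, 1 of 4 box H/ACA genes and 0 of 6 RNA polymerase I genes.

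Of these 6 genes, the 4 with the most negative mean fold change with TAK-981, chosen after their values were seen, are shown with 12 bases on each side, 5′ to 3′ on the gene's strand, the motif in capitals. EBNA1BP2, a large subunit factor, has it 237 bases before the start at chr1:43172790-43172819 (GRCh38.p14, minus strand), where GENCODE v29 also places an EBNA1BP2 exon and coding sequence of CFAP57 on the opposite strand. UTP18, of the small subunit processome, has it 89 bases before the start at chr17:51260445-51260474 (plus strand) where GENCODE v29 places no feature. IMP4, of the U3 snoRNP, has it 203 bases before the start at chr2:130342682-130342711 (plus strand), and SURF6, a nucleolar large subunit factor, 224 bases before the start at chr9:133336395-133336424 (minus strand), both inside an untranslated exon of their own gene in GENCODE v29.
EBNA1BP2: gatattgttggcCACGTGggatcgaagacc
UTP18: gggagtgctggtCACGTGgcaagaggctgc
IMP4: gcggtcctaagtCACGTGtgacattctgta
SURF6: ggagcacaggaaCACGTGcgggaccggggt
The motif is a match of letters only. The 6 genes that held it before the start had a median log2 fold change with TAK-981 of -0.072 in MM1S and -0.19 in MM1R. The other 43 matched genes had medians of -0.26 and -0.39, but not all of them lack the motif. They include the genes that held it in the longer window but not before the start. The changes of those genes ran from -0.90 (PUS7) to -0.088 (PES1) in MM1S. In MM1R they ran from -0.77 (FBL) to -0.15 (NOC3L). Whether genes with the motif anywhere in the longer window changed differently from those without it was not tested.

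With TAK-981 alone most of the 57 genes were lower in both lines and called none higher. In MM1S 33 of 57 were called lower and 0 higher, where 23.7% of all genes tested were called lower and 25.2% higher. In MM1R 46 of 57 were lower and 0 higher, against 27.6% and 25.8% of all genes. The median change of the 57 was -0.26 in MM1S and -0.39 in MM1R, against 0.037 and 0.004 over all genes. In MM1R both TAK-981 libraries lay below both vehicle libraries for 55 of the 57 genes, and in MM1S for 44, where 40.9% and 32.8% of all genes were arranged so. The called falls ran from 10.2% (POLR1B) to 46.4% (PUS7) in MM1S and from 12.1% (POLR1A) to 47.3% (LYAR) in MM1R. In MM1S 1 gene was called higher when a TAK-981 library was left out, IMP3 without the first and NOP10 without the second.

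The 3 box C/D genes, whose proteins guide and carry out ribose methylation of ribosomal RNA, were called lower in both lines. NOP56, a core scaffold of the particle, had 198 and 179 CPM in vehicle-treated MM1S and 122 and 141 with TAK-981, a log2 fold change of -0.52 (SE 0.0765, adjusted p = 1.62e-05). In MM1R NOP56 went from 270 and 273 CPM to 183 and 186 (-0.56, SE 0.0754, adjusted p = 6.66e-06). The libraries of the groups did not overlap in either line. FBL, the methyltransferase fibrillarin, had 163 and 166 CPM in vehicle and 89.2 and 120 with TAK-981 in MM1S (-0.66, SE 0.109, adjusted p = 0.0001). In MM1R FBL had 192 and 204 CPM in vehicle and 116 and 117 with TAK-981 (-0.77, SE 0.108, adjusted p = 1.69e-05). The TAK-981 replicates of FBL were far apart in MM1S and close in MM1R, and in both lines all lay below vehicle. NOP58, the partner scaffold, changed by -0.47 and -0.46.

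Of the box H/ACA genes, whose particle converts uridine to pseudouridine, DKC1, NHP2 and GAR1 were called lower in both lines and NOP10 in neither. DKC1, the pseudouridine synthase dyskerin, had 114 and 108 CPM in vehicle and 74.5 and 82.7 with TAK-981 in MM1S (-0.50, SE 0.0731, adjusted p = 1.75e-05). In MM1R DKC1 had 157 and 168 CPM in vehicle and 107 and 106 with TAK-981 (-0.61, SE 0.0713, adjusted p = 1.16e-06). NHP2, an RNA-binding core protein, had 59.9 and 62.0 CPM in vehicle and 37.6 and 41.9 with TAK-981 in MM1S (-0.62, SE 0.0956, adjusted p = 3.07e-05). All of these values kept vehicle and TAK-981 apart. NHP2 in MM1R went from 80.2 and 87.3 CPM to 54.8 and 53.9 (-0.62, adjusted p = 1.66e-05), and GAR1 changed by -0.41 and -0.60. NOP10 differed from its partners, with changes of 0.047 (adjusted p = 0.664) in MM1S and -0.14 (adjusted p = 0.13) in MM1R.

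All 8 organisers and RNA modifiers were called lower in both lines. NCL, which binds ribosomal RNA precursors, had 597 and 569 CPM in vehicle and 405 and 466 with TAK-981 in MM1S (-0.42, SE 0.0740, adjusted p = 0.000118). In MM1R NCL had 610 and 632 CPM in vehicle and 386 and 379 with TAK-981 (-0.70, SE 0.0740, adjusted p = 3.69e-07). NCL, NOP56, DKC1 and others of the list hold small RNA genes within their extents, in all 24 short ones within 9 of the 57 and also SNORA8, listed with a longer extent of 1.98 kb, within TAF1D. These small RNAs are counted as genes of their own in the table. NOLC1, a nucleolar chaperone of snoRNPs, had 247 and 241 CPM in vehicle and 158 and 157 with TAK-981 in MM1S (-0.63, SE 0.0567, adjusted p = 3.71e-08). In MM1R NOLC1 had 290 and 294 CPM in vehicle and 192 and 194 with TAK-981 (-0.60, SE 0.0563, adjusted p = 8.45e-08). Vehicle and TAK-981 did not overlap in either line for NCL or NOLC1.

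PUS7, a pseudouridine synthase that works without a guide RNA, had the most negative change in MM1S, from 51.1 and 48.2 CPM to 29.2 and 24.0 (-0.90, SE 0.0848, adjusted p = 6.44e-08). In MM1R PUS7 went from 59.0 and 62.3 CPM to 38.0 and 37.6 (-0.68, SE 0.0807, adjusted p = 1.3e-06). LYAR, a nucleolar growth regulator, had the most negative change in MM1R, from 35.0 and 36.0 CPM to 17.9 and 19.5 (-0.92, SE 0.117, adjusted p = 2.81e-06). In MM1S LYAR went from 26.7 and 22.6 CPM to 13 and 15.7 (-0.78, SE 0.125, adjusted p = 4.19e-05). The groups were apart in both lines for both genes. The rest of the role changed by -0.35 and -0.45 (MYBBP1A), -0.50 and -0.45 (DDX21, an RNA helicase) and -0.43 and -0.44 (GNL3, nucleostemin) in MM1S and MM1R.

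RNA polymerase I genes were less uniform, with 3 of 7 called lower in MM1S and 6 of 7 in MM1R. POLR1E, a subunit of the enzyme, had 35.6 and 33.1 CPM in vehicle and 19.6 and 22.0 with TAK-981 in MM1S (-0.73, SE 0.0848, adjusted p = 1.08e-06). In MM1R POLR1E had 49.7 and 52.3 CPM in vehicle and 30.4 and 31.4 with TAK-981 (-0.72, SE 0.0788, adjusted p = 4.96e-07). The largest subunit, POLR1A, fell far less, with 105 and 103 CPM in vehicle and 88.5 and 93.6 with TAK-981 in MM1S (-0.19, adjusted p = 0.0187) and 142 and 145 against 129 and 123 in MM1R (-0.19, adjusted p = 0.0167). Subunits of the same enzyme thus had called changes of unequal size. TAF1D, of the promoter selectivity factor, was at -0.009 and 0.011 and called in neither line, with CEP295 overlapping it on the other strand and SNORA8 (mean count 1180) inside it on the same strand, and an unstated strand setting in the counting.

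In small subunit assembly 7 of 17 genes were called lower in MM1S and 13 of 17 in MM1R. HEATR1, a processome protein and the most abundant of the role by reads, had 297 and 268 CPM in vehicle and 249 and 215 with TAK-981 in MM1S (-0.28, SE 0.0698, adjusted p = 0.00238). In MM1R HEATR1 had 331 and 341 CPM in vehicle and 291 and 289 with TAK-981 (-0.21, SE 0.0693, adjusted p = 0.0146). HEATR1 overlaps LGALS8 on the opposite strand in the table. The changes in this role ran from -0.37 (WDR43) to 0.22 (IMP3) in MM1S and from -0.59 (NOC4L) to -0.061 (WDR75) in MM1R.

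In large subunit assembly 9 of 18 genes were called lower in MM1S and 13 of 18 in MM1R. EBNA1BP2, whose promoter stretch is printed above, had 59.9 and 55.6 CPM in vehicle and 37.7 and 44.0 with TAK-981 in MM1S (-0.50, SE 0.0915, adjusted p = 0.000178). In MM1R EBNA1BP2 had 86.7 and 92.8 CPM in vehicle and 52.2 and 53.7 with TAK-981 (-0.76, SE 0.0875, adjusted p = 9.48e-07). Vehicle and TAK-981 did not overlap in either line. MRTO4, which holds a place on the pre-ribosome for the stalk protein, changed by -0.44 and -0.59, and GNL2, a nucleolar GTPase of the role, by -0.45 and -0.39.

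**Figure D1:**
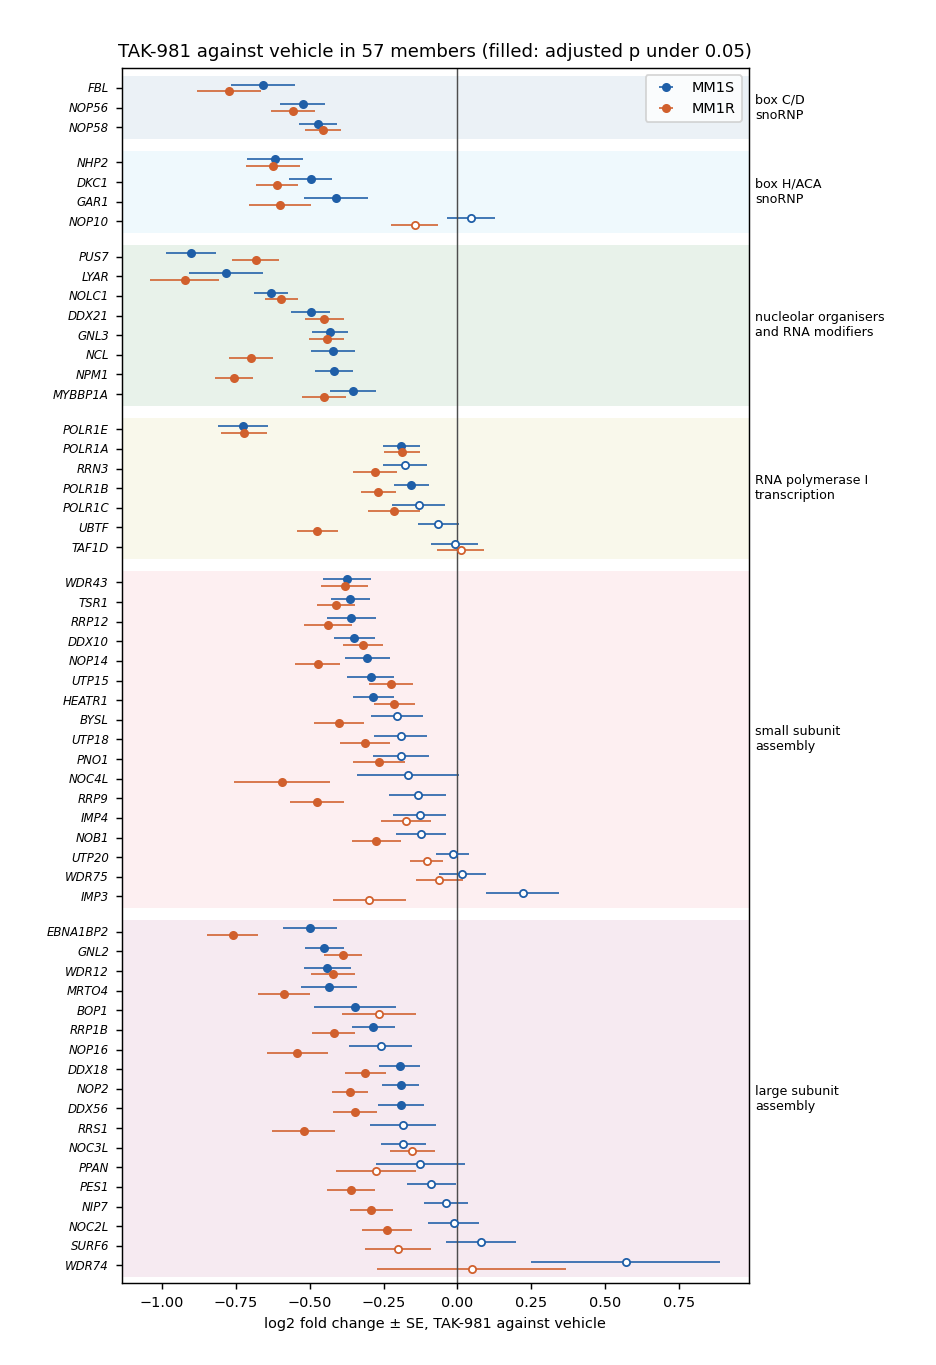
Log2 fold change of TAK-981 against vehicle (horizontal axis, point ± SE) for each of the 57 genes, grouped by role, in MM1S (blue) and MM1R (orange), with filled points where the adjusted p is under 0.05. Filled points all lie left of 0, from -0.90 for PUS7 in MM1S and -0.92 for LYAR in MM1R, and WDR74 has the widest error.

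In 10 of the 57 genes TAK-981 gave no call in either line: NOP10, TAF1D, WDR75, UTP20, IMP3, IMP4, WDR74, PPAN, NOC3L and SURF6. Across the 57 genes the changes in the lines, which share no library, had a Pearson r of 0.791 and a Spearman rho of 0.767. The sign was the same for 52 of 57. Over all 14215 genes r was 0.75 and rho 0.768, and 11371 had the same sign. The genes share each library's scaling, and they are not independent replicates. Of the 33 genes called lower in MM1S, 32 (97%) were also called in MM1R, which is 69.6% of the 46 called there. The shares of all genes called in both lines or in neither were not worked out. These overlaps are therefore not a result particular to the 57. Level in vehicle ranked only weakly with the change, with a rho of -0.165 in MM1S and -0.209 in MM1R over the 57 genes.

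**Figure D2:**
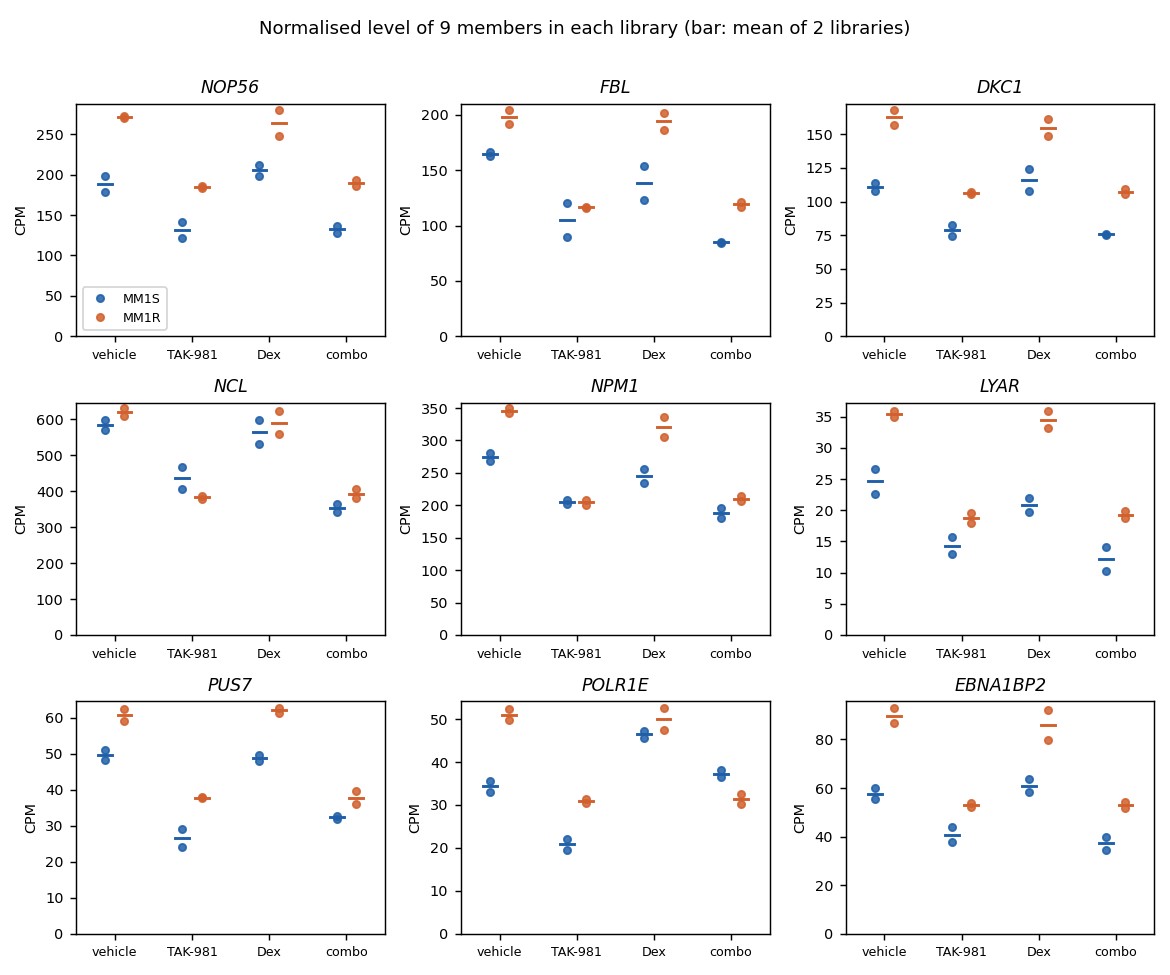
CPM (vertical axis, from 0) of 9 named genes in every library of MM1S (blue) and MM1R (orange) under vehicle, TAK-981, Dex and combo, with a bar at the mean of the 2 libraries. In MM1R every TAK-981 and combo point lies below every vehicle and Dex point for each of the 9 genes.

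The test of the difference in TAK-981 response between the lines called 2 of the 57 genes, both with a deeper fall in MM1R, where 0.978% of all genes were called in that direction and 3.19% in the other. UBTF, which organises ribosomal DNA chromatin for RNA polymerase I, had 157 and 155 CPM in vehicle and 138 and 160 with TAK-981 in MM1S (-0.064, adjusted p = 0.479), so that these groups overlapped. In MM1R UBTF had 230 and 240 CPM in vehicle and 170 and 168 with TAK-981 (-0.47, SE 0.0699, adjusted p = 1.75e-05). The difference of these changes was -0.41 (SE 0.0994, adjusted p = 0.0252). NPM1 had 280 and 268 CPM in vehicle and 202 and 208 with TAK-981 in MM1S (-0.42), and 342 and 350 against 201 and 208 in MM1R (-0.76), a difference of -0.34 (SE 0.0914, adjusted p = 0.0423). With TAK-981 the NPM1 levels of the lines met, while in vehicle they were apart. These calls were sensitive to single libraries: the count of genes with a deeper fall in MM1R was 0 without either vehicle library of MM1S, either vehicle library of MM1R or either TAK-981 library of MM1R, 1 (NOP10) without the second MM1S TAK-981 library and 7 without the first.

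Dex raised many of the assembly and RNA polymerase I genes in MM1S. In MM1S 26 of 57 genes were called higher and 1 lower, where 20.8% of all genes were called higher and 21.5% lower. The median change of the 57 was 0.167, against 0.011 over all genes. By role, 5 of 7 RNA polymerase I genes, 12 of 17 small subunit genes, 8 of 18 large subunit genes and 1 of 8 organisers and modifiers were called higher, and 0 of the 7 snoRNP genes. The called rises ran from 13.8% (HEATR1) to 44.0% (POLR1A), and the gene called lower was DDX18, an RNA helicase of large subunit assembly, which fell by 12.5% and was not called without the first vehicle library, without either Dex library or with only the groups compared in the fit. The count of genes called higher was 14 without the first or without the second MM1S vehicle library and 12 without the second MM1S Dex library.

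POLR1A had 105 and 103 CPM in vehicle-treated MM1S and 151 and 148 with Dex (0.53, SE 0.0625, adjusted p = 1.85e-06). NOC4L, of the small subunit processome, had 7.89 and 7.23 CPM in vehicle and 11.1 and 10.6 with Dex (0.52, SE 0.162, adjusted p = 0.015). IMP4 had 37.7 and 39.6 CPM in vehicle and 50 and 59.6 with Dex (0.50, SE 0.0869, adjusted p = 0.000131). Dex lay above vehicle in every library of these genes. RRS1, which helps bring the 5S particle to the pre-60S subunit, had 32.1 and 29.5 CPM in vehicle and 37.9 and 46.4 with Dex (0.45, SE 0.108, adjusted p = 0.00239). POLR1E rose from 35.6 and 33.1 to 45.7 and 47.2 CPM (0.44, adjusted p = 0.000209). Both were apart from vehicle. Among the genes without a call, FBL had 163 and 166 CPM in vehicle and 123 and 154 with Dex (-0.25, adjusted p = 0.0728). FBL was called lower with library size scaling, with no filter, with the replicate block, with only the groups compared in the fit and without the second MM1S Dex library. NPM1, also without a call, had 280 and 268 CPM in vehicle and 234 and 256 with Dex. It was called lower with RLE, library size and upper quartile scaling and with the replicate block. NOLC1 was called lower with library size scaling and with the replicate block. NCL had 597 and 569 against 531 and 599 (-0.046, adjusted p = 0.651).

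**Figure D3:**
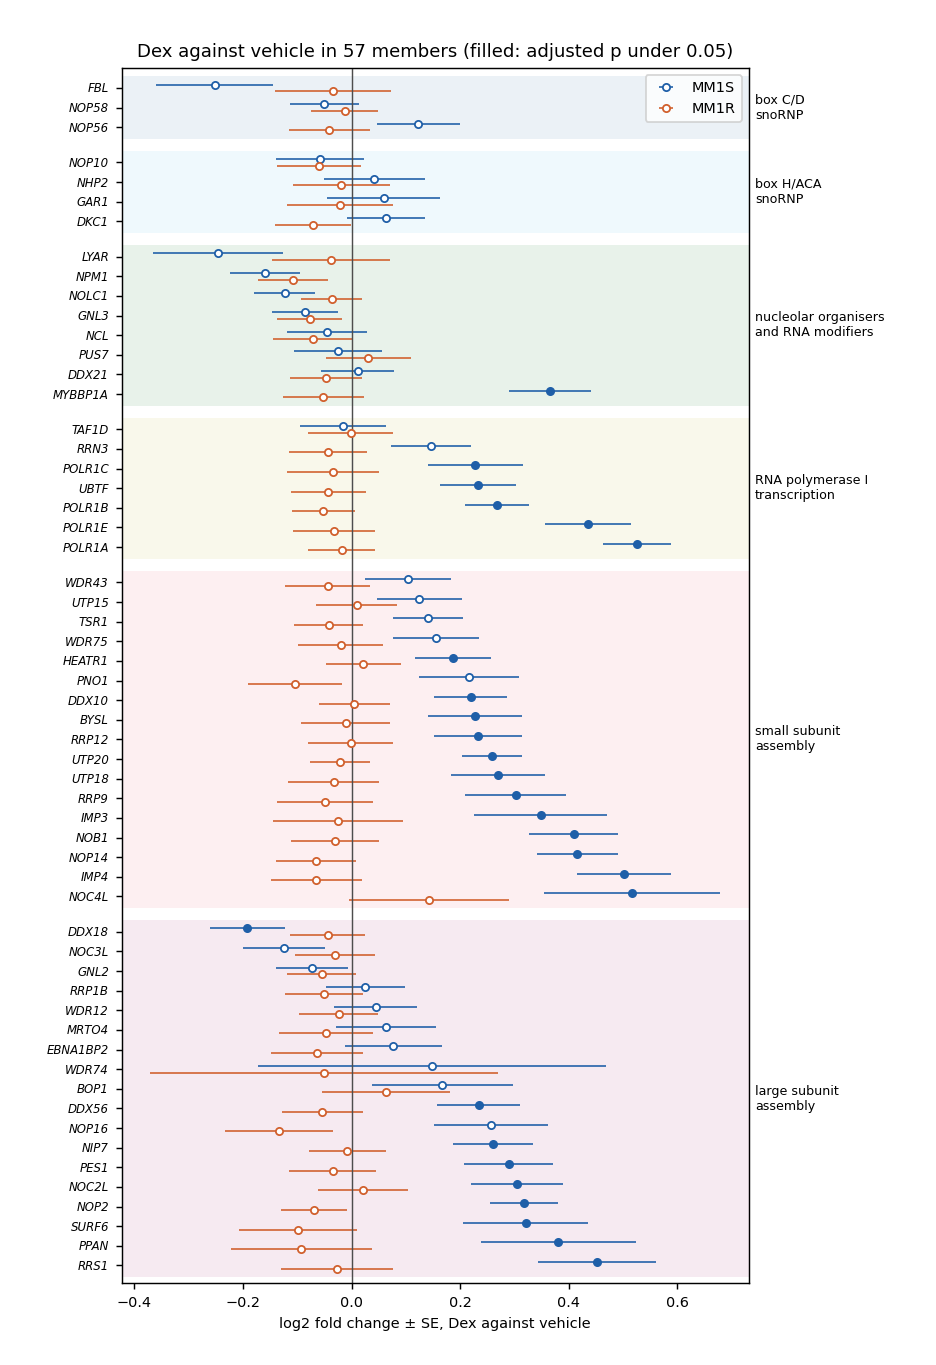
Log2 fold change of Dex against vehicle (horizontal axis, point ± SE) for the 57 genes by role in MM1S (blue) and MM1R (orange), filled where the adjusted p is under 0.05. In MM1S the filled points, 26 to the right of 0 and 1 to the left, belong mainly to RNA polymerase I and subunit assembly, and in MM1R no point is filled.

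In MM1R Dex gave no call by edgeR among the 57 genes in either direction, and 0% of all genes were called lower and 0% higher. At an unadjusted p under 0.05 the count was 0 of the 57 and 395 of all 14215 genes, and DESeq2 also called 0 genes. The 57 changes ran from -0.13 to 0.14, with a median of -0.038. POLR1A had 142 and 145 CPM in vehicle and 139 and 145 with Dex, so the groups overlapped.

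The test of the difference in Dex response between lines called 13 of the 57 genes. In all of them the change with Dex, as distinct from the level, was lower in MM1R than in MM1S. Of all genes, 13.1% were called in that direction and 15.0% in the other. By role the 13 genes were POLR1A, POLR1B, POLR1E and UBTF of RNA polymerase I, NOP14, UTP20, RRP9, NOB1 and IMP4 of the small subunit, NOP2, PES1 and RRS1 of the large subunit and MYBBP1A. The differences ran from -0.57 (IMP4, adjusted p = 0.0016) to -0.28 (UBTF, adjusted p = 0.044), with POLR1A at -0.54 (SE 0.0877, adjusted p = 0.000123). The count was 8 without the second MM1R vehicle library or without the first MM1R Dex library and 21 without the first MM1S Dex library.

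The combo was close to TAK-981 alone in MM1R and differed by role in MM1S. In MM1R 43 of 57 genes were called lower than vehicle and 0 higher (26.7% and 24.8% of all genes), with a median of -0.37. The combo against TAK-981 in MM1R called 0 of the 57 genes by edgeR in either direction, as for 0% of all genes lower and 0% higher; at an unadjusted p under 0.05 there were 0 of the 57 and 214 genes in all, and DESeq2 called 0. In MM1S 27 of 57 were called lower than vehicle and 2 higher, where 29.5% of all genes were lower and 30.8% higher, so here the share called lower, 47.4% of the 57, stood nearer to that of all genes. The 2 called higher were IMP4 (0.23, adjusted p = 0.0302) and WDR75, of the small subunit processome (0.19, adjusted p = 0.0441), and these calls were lost in part without single libraries: neither without the second vehicle library, WDR75 alone without the first vehicle or the second combo library, and IMP4 alone without the first combo library. By role, 3 of 3 box C/D, 4 of 4 box H/ACA and 7 of 8 organisers and modifiers were lower with the combo in MM1S, and 1 of 7 RNA polymerase I, 4 of 17 small subunit and 8 of 18 large subunit genes.

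Comparing combo with Dex measures TAK-981 on a Dex background, with libraries that the TAK-981 against vehicle comparison does not use. In MM1S 47 of 57 genes were called lower and 0 higher, against 25.4% and 22.2% of all genes, and in MM1R 44 were lower and 0 higher, against 25.3% and 23.1%. Medians were -0.39 in MM1S and -0.36 in MM1R, and over all genes 0.007 and 0.003. Across the 57 genes, changes with TAK-981 alone and on the Dex background had an r of 0.643 in MM1S and 0.968 in MM1R, as a description. Called lower in all 4 of these TAK-981 comparisons were 30 of the 57 genes. Among them were the 3 box C/D genes, DKC1, NHP2, GAR1 and all 8 organisers and modifiers. The share of all genes called lower in all 4 was not worked out, so whether 30 of 57 is unusual cannot be told here.

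Against TAK-981 alone, the combo in MM1S had 10 genes called higher (17.5% of the 57) and 4 lower (7.02%), where 14.5% of all genes were higher and 20.6% lower. POLR1E had the largest difference, with 19.6 and 22.0 CPM in TAK-981 and 36.5 and 38.1 in combo (0.85, SE 0.0854, adjusted p = 2.7e-07). Vehicle stood at 35.6 and 33.1 CPM, slightly below combo. In combo against vehicle POLR1E was not called with the settings used here, and was called higher with upper quartile scaling. The 4 lower were BYSL (-0.41), NOP10 (-0.31), NCL (-0.305) and FBL (-0.30). The 10 higher were POLR1A, POLR1C and POLR1E, the organisers MYBBP1A and PUS7, the small subunit genes NOP14, WDR43, IMP4 and DDX10, and NOP2 of the large subunit; the count was 6 without either combo library. With only the groups compared in the fit, 3 were called higher (DDX10, IMP4 and POLR1E) and 1 lower (BYSL).

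The interaction of TAK-981 and Dex asks whether the combined change differs from the sum of the single changes on the log2 scale. In MM1S it called 5 of the 57 genes lower (8.77%) and 1 higher (1.75%). Of all genes 9.48% were called lower and 5.47% higher, so neither share of the 57 exceeded that of all genes. BYSL, bystin, needed for small subunit export, had 33.4 and 31.7 CPM in vehicle, 27.1 and 29.4 in TAK-981, 35.1 and 41.0 in Dex and 20.6 and 21.9 in combo (interaction -0.63, SE 0.128, adjusted p = 0.00273). The combo libraries of BYSL lay below all others of MM1S. UTP20, a processome protein, had 208 and 201 CPM in vehicle, 205 and 199 in TAK-981, 246 and 242 in Dex and 182 and 192 in combo (-0.37, SE 0.0783, adjusted p = 0.00399). For UTP20 the combo was again the lowest group, while TAK-981 alone overlapped vehicle. RRS1 (-0.49, SE 0.158, adjusted p = 0.0431) had 32.1 and 29.5 CPM in vehicle, 23.7 and 30.7 in TAK-981 and 25.5 and 27.3 in combo, against 37.9 and 46.4 in Dex.

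NIP7, which acts in pre-60S assembly, had 38.2 and 38.4 CPM in vehicle, 36.9 and 37.7 in TAK-981, 43.3 and 48.4 in Dex and 33.6 and 36.7 in combo (-0.34, SE 0.106, adjusted p = 0.0362). POLR1A had 101 and 112 CPM in combo, overlapping vehicle at 105 and 103 and below Dex at 151 and 148 (-0.30, SE 0.0893, adjusted p = 0.0309). POLR1E went the other way (0.41, SE 0.116, adjusted p = 0.0241), so 2 subunits of RNA polymerase I had interactions of opposite sign. The number called lower was 2 (BYSL and UTP20) without either MM1S vehicle library, the second Dex library or the first combo library, 3 (with NOP10) without the second TAK-981 library, 11 without the first Dex library and 14 without the first TAK-981 library. The call of POLR1E was lost without the first vehicle library, the first TAK-981 library or either combo library. In MM1R the interaction called 0 of the 57 by edgeR and by DESeq2, with 0% of all genes lower and 0% higher; at an unadjusted p under 0.05 it was 0 of the 57 and 400 of all genes.

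**Figure D4:**
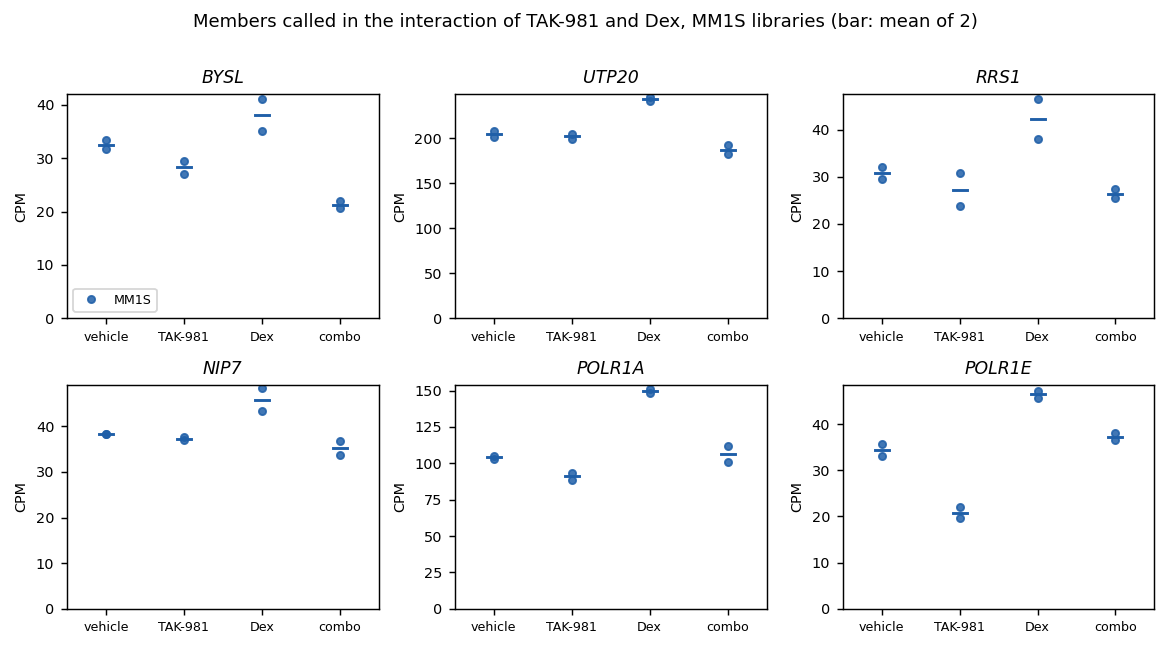
CPM (vertical axis, from 0) in the 8 MM1S libraries of the 6 genes called in the interaction of TAK-981 and Dex, with a bar at the mean of the 2 libraries of each treatment. BYSL and UTP20 are lowest in combo, at 20.6 and 21.9 and at 182 and 192 CPM, and POLR1E is lowest in TAK-981 at 19.6 and 22.0 CPM.

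In vehicle, most of the 57 genes stood higher in MM1R than in MM1S. The test called 49 of 57 higher and 0 lower, where 25.6% of all genes were higher and 22.6% lower, and the median difference was 0.39 against 0.007 over all genes. Both MM1R libraries lay above both MM1S libraries for 55 of the 57, an arrangement found in 40.8% of all genes. By role, 3 of 3 box C/D, 4 of 4 box H/ACA, 7 of 8 organisers and modifiers, 6 of 7 RNA polymerase I, 15 of 17 small subunit and 14 of 18 large subunit genes were called. The called differences ran from 13.1% (DDX10) to 55.5% (EBNA1BP2).

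EBNA1BP2 had 59.9 and 55.6 CPM in MM1S and 86.7 and 92.8 in MM1R (0.64, SE 0.0868, adjusted p = 1.05e-05). NOP2, a methyltransferase of the large subunit rRNA, had 94.8 and 90.2 CPM in MM1S and 141 and 145 in MM1R (0.63, SE 0.0616, adjusted p = 2.06e-07). NOP16, another large subunit factor, had 33.6 and 35.3 CPM in MM1S and 49.2 and 55.2 in MM1R (0.60, SE 0.102, adjusted p = 0.000108). The lines were apart in all of them. NCL was not called, at 597 and 569 against 610 and 632 CPM (0.09, adjusted p = 0.334), and neither was TAF1D (0.053, adjusted p = 0.605). WDR74 was the only one of the 57 with a negative value (-0.51, adjusted p = 0.232).

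**Figure D5:**
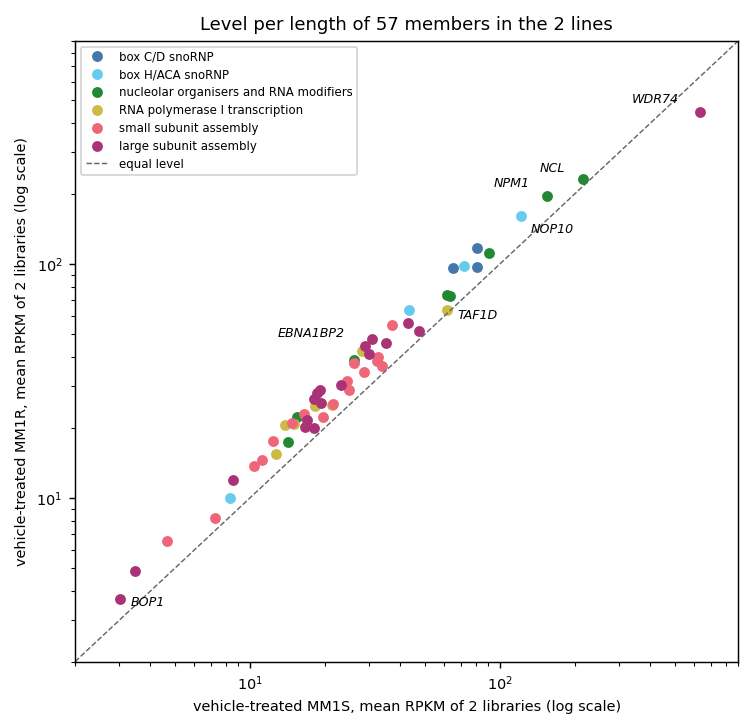
Mean RPKM of each of the 57 genes in vehicle-treated MM1S (horizontal) and MM1R (vertical), both on log axes, coloured by role, with a dashed line of equal level. All points but WDR74, at 634 and 446 RPKM, lie above the line, and the levels run from BOP1 at 3.02 and 3.70 upward.

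As a sum, the 57 genes took 0.720% and 0.730% of all counts in vehicle-treated MM1S, 0.603% and 0.704% with TAK-981, 0.721% and 0.807% with Dex and 0.647% and 0.602% with combo. Without WDR74 these shares were 0.601% and 0.570%, 0.451% and 0.457%, 0.607% and 0.619%, and 0.467% and 0.471%. Without WDR74 the TAK-981 replicates were close to each other. In MM1R without WDR74 the shares were 0.701% and 0.716% in vehicle, 0.524% and 0.526% with TAK-981, 0.677% and 0.713% with Dex and 0.522% and 0.538% with combo.

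A second list held 116 further ribosome biogenesis genes, all of them tested. TAK-981 called 47 of the 116 lower and 5 higher in MM1S and 78 lower and 2 higher in MM1R, with medians of -0.15 and -0.29. These were 40.5% lower and 4.31% higher in MM1S, against 23.7% and 25.2% of all genes, and 67.2% lower and 1.72% higher in MM1R, against 27.6% and 25.8%. Dex in MM1S called 35 higher (30.2%, against 20.8% of all genes) and 7 lower (6.03%, against 21.5%), with a median of 0.122. Vehicle-treated MM1R had 75 higher than MM1S (64.7%, against 25.6%) and 2 lower (1.72%, against 22.6%), with a median of 0.258. By role, TAK-981 lowered 31 of 41 further small subunit genes, 24 of 39 large subunit genes, 6 of 8 RNA polymerase I genes, 8 of 13 exosome genes and 5 of 10 snoRNP assembly genes in MM1R, and 13, 17, 4, 6 and 5 of them in MM1S.

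The rixosome, an enzyme complex that processes the large subunit precursor and whose SUMO is removed by SENP3, was followed through 5 listed genes. PELP1, its scaffold and a SUMO target, had 80.5 and 85.5 CPM in vehicle and 56.6 and 74.3 with TAK-981 in MM1S (-0.34, SE 0.106, adjusted p = 0.013). In MM1R PELP1 had 93.0 and 101 CPM in vehicle and 63.5 and 68.8 with TAK-981 (-0.55, SE 0.104, adjusted p = 0.000314). LAS1L, the endonuclease of the complex, changed by -0.33 (adjusted p = 0.00075) and -0.45 (adjusted p = 2.01e-05). These genes were called lower in both lines. WDR18 (-0.19 and -0.45) and SENP3 (-0.16 and -0.30) were called in MM1R alone, adjusted p = 0.000358 and 0.0215, and the test of the difference between lines gave adjusted p = 0.258 and 0.63. TEX10 (-0.17 and -0.068) was called in neither.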

How the data were processed

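RNA-seq was made by the authors from 16 libraries. The deposited table holds counts per gene, not normalized, and per the submitters' processing notes the tools were bcl2fastq 2.18.0.12, STAR 2.6.0, HTSeq 0.6.0 and edgeR 3.28.1 with hg19; the strand setting of the counting is not given in the sources used here, so reads of overlapping genes cannot be told apart. From the counts, edgeR 4.0.16 in R 4.3.3 fitted 1 term per group over all 16 libraries (filterByExpr, TMM, robust quasi-likelihood F test, 8 residual degrees of freedom), adjusted by Benjamini-Hochberg over 14215 genes with a threshold of 0.05. CPM uses the TMM library sizes, and log2 CPM a prior count of 2. The fit was tested on simulated data drawn with the same spread in every gene and group. That test therefore does not cover the unequal spread between replicates given above. DESeq2 1.42.0, other scalings, filters, a replicate block and leaving out each library were alternatives. The members and lists were chosen with earlier results of these data known. Genes given with every library's value were the most abundant of each role, the largest changes with TAK-981 (6 per line) and Dex (4), those called in the interactions and the 3 largest line differences. Same-numbered libraries deviated together with correlations of 0.0162 to 0.263 in MM1S and -0.0134 to 0.0821 in MM1R. The numbers were not taken as pairs in the main fit. With the replicate block the genes called over all those tested went from 6960 to 7830 for TAK-981 in MM1S. They went from 592 to 2061 for line by TAK-981 and stayed at 0 for Dex in MM1R. Whether same-numbered libraries share a source was not tested.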

Additional observations from a re-analysis of the deposited data

Results flagged for a closer look

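These results differed between groups by the test of the difference itself, edgeR's quasi-likelihood test with adjusted p under 0.05. The change with TAK-981 in MM1R minus that in MM1S was -0.34 for NPM1 and -0.409 for UBTF on the log2 scale, and neither was called when any 1 vehicle library, any 1 MM1R TAK-981 library or the second MM1S TAK-981 library was left out.

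The change with Dex in MM1R minus that in MM1S was -0.417 for MYBBP1A. For the RNA polymerase I genes it was -0.544 (POLR1A), -0.32 (POLR1B), -0.468 (POLR1E) and -0.276 (UBTF). For small subunit genes it was -0.482 (NOP14), -0.279 (UTP20), -0.351 (RRP9), -0.439 (NOB1) and -0.567 (IMP4). For large subunit genes it was -0.387 (NOP2), -0.324 (PES1) and -0.479 (RRS1).

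The interaction of TAK-981 and Dex in MM1S was -0.3 for POLR1A, 0.41 for POLR1E, -0.369 for UTP20, -0.634 for BYSL, -0.493 for RRS1 and -0.344 for NIP7. The shares called, 8.77% of the 57 lower and 1.75% higher, were below the 9.48% and 5.47% of all genes.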

How the results depend on the processing

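Of 678 counts and medians recomputed under alternatives, 581 stayed (a count within 1.5 times, a median within the spread between replicates) and 97 moved. Of 1012 values of named genes 905 kept direction and call, 43 lost and 42 gained a call, and 22 changed sign without a call in either fit. With RLE scaling Dex in MM1S had 2 genes lower and combo against vehicle in MM1S 1 higher. With library size only these were 4 and 1, the line median 0.325, the line by TAK-981 count 1 and the TAK-981 by Dex count lower 2. With upper quartile scaling they were 2 and 4, 0.325, 1 and 2, and medians were -0.306 (TAK-981, MM1R), -0.11 and -0.298 (combo against vehicle, MM1S and MM1R) and -0.294 (combo against Dex, MM1S). With no filter TAK-981 in MM1S had 2 higher (IMP3 and WDR74), Dex in MM1S 2 lower (DDX18 and FBL), the line comparison 1 lower (WDR74), line by TAK-981 5 and TAK-981 by Dex 8 lower. With the replicate block, where samples share only a number, TAK-981 in MM1S had 1 higher, Dex in MM1S 4 lower, line by TAK-981 5, line by Dex 24 and TAK-981 by Dex 10 lower and 2 higher. With DESeq2 combo against vehicle in MM1S had 0 higher. Fitting only the groups compared gave 1 higher (WDR74) for combo against vehicle in MM1R, 1 lower and 3 higher for combo against TAK-981 in MM1S, and 1 lower and 0 higher for TAK-981 by Dex.

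Requiring a log2 fold change of 0.5 left 7 and 16 genes lower with TAK-981 in MM1S and MM1R, 0 lower and 3 higher with Dex in MM1S, 12 lower and 0 higher and 15 lower for combo against vehicle, 16 and 11 lower for combo against Dex, 0 lower and 1 higher for combo against TAK-981 in MM1S, 14 higher for the line, 0 for line by TAK-981, 2 for line by Dex and 1 lower and 0 higher for TAK-981 by Dex. Genes overlapping the listed extent of another gene were also left out, and 33 remained. That left 18 and 27 lower with TAK-981, and 0 lower and 17 higher with Dex in MM1S. For combo against vehicle 15 were lower and 0 higher in MM1S, and 25 lower in MM1R. There were 27 and 26 lower for combo against Dex, 5 higher for combo against TAK-981 in MM1S and 30 higher for the line. Fewer genes were counted. Some listed extents reach over distant genes. That of MIR1244-2, with a mean count of 0, overlaps NOP58, NCL, WDR75, IMP4, WDR12 and DDX18. The genes left out thus include some whose only such overlap has no counts. Leaving out WDR74, chosen after seeing the data, moved no count.

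Leaving out 1 library at a time, TAK-981 in MM1S gave 26 to 33 lower and 0 to 1 higher, TAK-981 in MM1R 38 to 45 lower, Dex in MM1S 0 to 2 lower and 12 to 23 higher, combo against vehicle in MM1S 0 to 1 higher, combo against TAK-981 in MM1S 6 to 11 higher, line by TAK-981 0 to 7 lower and 0 to 1 higher, line by Dex 8 to 21 lower and TAK-981 by Dex 2 to 14 lower and 0 to 3 higher. A lone library was assumed to vary like the other groups. The cause was not tested. With 2 libraries per group, small changes in genes of few counts, such as NOC4L and PPAN, are the least precise.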
